A study of Danio rerio with 12 samples.

Results

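Among 6 zebrafish libraries made from offspring of starved fathers, 2 held far more transcript of fosab, the zebrafish gene for a Fos protein, than the other 4. These 2 libraries, starved replicate 2 and starved replicate 5, are described here across all 13680 listed genes, beside starved replicates 1, 3, 4 and 6 and the 6 libraries from offspring of fed fathers. Libraries are called starved 1 to 6 and fed 1 to 6 after their replicate number. The 2 libraries, of 12 in all, were chosen by their fosab value, which was above 50 in both and below 5 in the other 4. The library nearest the limit on the high side was starved replicate 5 at 67.6, and the nearest on the low side was starved replicate 6 at 2.57. Since the same contrast chose the libraries, no test is given for any gene between the 2 and the 4, and counts of genes are set beside the share of all genes that met the same condition.

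The embryos were of the AB strain and were raised to 24 hours after fertilisation. Their mothers were fed wild-type females, whose eggs were fertilised in vitro with sperm of starved or of fed males, so the fathers' feeding was the only labelled difference between groups. Each library was made from 1 to 3 whole embryos of a clutch, taken out of the chorion by hand and frozen, and a value is therefore a sum over every tissue of the embryo. Fewer cells of a type and less RNA per cell cannot be told apart in it. The labels speak of several fathers but do not tie a father to a library, and the length of the starvation is not stated in them. Starved 2 shares the digits of its description code with fed 2, and starved 5 shares them with starved 6 and fed replicates 5 and 6. The labels do not say what a code stands for.

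Immediate early genes are transcribed within minutes of a stimulus by factors that the cell already holds, without the making of new protein. Fos and Jun proteins pair into the AP-1 factor, Egr proteins bind GC-rich promoters, and both pass signals from growth factors, light, injury, stress or nerve activity on to later genes. Their transcripts are short-lived, and the pathway is damped by phosphatases and by Sprouty-related proteins that it switches on itself. Most of these roles are known from mammalian cells.

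The values are the authors' read counts scaled by a size factor for each library, in which 1 read is worth 0.2336 to 0.3743. The 3' tag method reads a transcript near its polyadenylated end, so a value does not grow with transcript length. The libraries held 2950739 to 3934765 reads over the listed genes, the fewest in starved 2, while starved 5 held 3370487. The most abundant transcript, ENSDARG00000080337, took 39.2% of the reads in starved 2 and 46.7% in starved 5, within the 27.0% to 48.7% seen over all 12 libraries. In every library the summed values of 81 skeletal muscle genes (10428 to 36471), 56 neural genes (3089 to 5368) and 42 yolk layer genes (5289 to 26259) were well above 0.

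In starved replicates 2 and 5, 7 immediate early genes lay at least 2-fold above the highest of the other 4 starved libraries: the AP-1 genes fosab, fosl1a and junba, the Egr gene egr1, the paired genes ier2a and ier2b, and btg2. Their gaps, the lower of the 2 libraries minus the highest of the other 4 on the log2(value + 1) scale, ran between 1.15 for btg2 and 4.26 for fosab. The scale understates the change of low genes. Over all genes, 19 of 13680, or 0.139%, met this condition, and 7 of these 19 were among the 74 measured immediate early genes. The gene fosab met it by the choice of libraries, which leaves 6 of the other 73 immediate early genes among 18 of all genes. With the values of fed libraries set beside them, the 7 genes were also higher in both libraries than in all 6 fed libraries. Of the 19 genes past 2-fold, these 7 among them, 10 were above all 6 fed libraries. Of all genes, whatever their place beside the other starved libraries, 598, or 4.37%, were above all 6 fed.

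The gene fosab (ENSDARG00000031683, chromosome 20, 46552311 to 46554440, build GRCz11) encodes the Fos partner of AP-1. Its value was 356 in starved 2 and 67.6 in starved 5, against 1.42, 0.48, 1.89 and 2.57 in starved replicates 1, 3, 4 and 6 and 0.59, 1.36, 6.85, 2.41, 1.87 and 0.29 in fed replicates 1 to 6. These values rest on 1077 reads in starved 2 (95% exact Poisson interval 1014 to 1143) and 197 reads in starved 5 (170 to 227), and on at most 11 reads in the other starved libraries. Both libraries stood above the other 10 with no overlap, and the highest of the other 10 was a fed library. The intervals cover counting error only, since reads copied by PCR are not independent molecules.

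The gene fosl1a (ENSDARG00000015355, chromosome 14, 30739476 to 30747686) encodes a Fos-like AP-1 protein. It had 46.9 in starved 2 and 18.5 in starved 5, against 0, 0.48, 3.14 and 2.1 in the other starved libraries and 0.59, 2.44, 11.7, 0.30, 4.12 and 0.88 in the fed libraries in replicate order. No other library reached the lower of the 2, and fed 3 came nearest. The gap was 2.24 to the other starved libraries and 0.62 to the fed libraries. The value of 0 in starved 1 rests on 0 reads, which allow a value of up to 1.05 (upper 95% Poisson limit).

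The gene junba (ENSDARG00000074378, chromosome 1, 51732979 to 51734535) encodes a JunB-type AP-1 protein. It had 11.9 in starved 2 and 7.55 in starved 5, against 0, 0.24, 2.2 and 0.47 in the other starved libraries and 0.59, 1.36, 6.0, 4.22, 1.87 and 0.59 in the fed libraries. The counts were small, 36 and 22 reads in the 2 libraries (intervals 25.2 to 49.8 and 13.8 to 33.3). The 2 libraries did not overlap the other starved libraries (gap 1.42), but fed 3 lay close below starved 5 (gap 0.29), within the counting interval of that library (4.73 to 11.4 as a value).

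The zinc finger factor gene egr1 (ENSDARG00000037421, chromosome 14, 21332522 to 21336385) had 13.2 in starved 2 and 5.15 in starved 5, against 1.14, 1.45, 0 and 0.70 in the other starved libraries. The fed libraries had 0.30, 2.71, 1.43, 0, 0 and 0.88. It had 40 reads in starved 2 and 15 in starved 5, the fewest of the 7 genes in starved 5, and at most 6 in the other starved libraries. The groups did not overlap, with a gap of 1.33 to the other starved and 0.73 to the fed libraries. The counting interval of starved 5 ran between 2.88 and 8.49, just above the highest fed value. It overlapped the intervals of fed 2 (1.3 to 4.99) and starved 3 (0.531 to 3.15), among others.

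The genes ier2a (ENSDARG00000099195, chromosome 3, 33761549 to 33762726) and ier2b (ENSDARG00000086881, chromosome 11, 31038409 to 31039533) are the zebrafish copies of immediate early response 2, a small nuclear protein. For ier2a, values were 123 in starved 2 and 47.0 in starved 5, against 9.09, 3.13, 8.49 and 13.1 in the other starved libraries and 11.3, 8.69, 11.7, 28.9, 20.6 and 5.58 in the fed libraries. For ier2b, values were 67.7 in starved 2 and 43.2 in starved 5, against 3.98, 1.45, 8.49 and 2.80 in the other starved libraries and 2.96, 4.34, 0.86, 11.8, 17.6 and 2.93 in the fed libraries. Both copies separated the 2 libraries from the other 10. The gap to the other starved libraries was 1.77 for ier2a and 2.22 for ier2b, and the gap to the fed libraries was 0.68 for ier2a and 1.25 for ier2b. With fosab, ier2b was 1 of 4 genes in the table, or 0.0292%, at which both libraries lay at least 2-fold above every fed library.

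The gene btg2 (ENSDARG00000020298, chromosome 22, 336256 to 339623) encodes a protein that restrains the cell cycle, binds a deadenylase complex and is also a p53 target in mammals. It differed from the other 6 in being well read in every library. Its value was 167 in starved 2 and 129 in starved 5, against 57.7, 19.0, 52.5 and 36.7 in the other starved libraries and 54.8, 63.0, 57.4, 81.3, 66.3 and 47.8 in the fed libraries. The 2 libraries did not overlap the rest. Starved replicates 3 and 6 were lower than every fed library. The gap was 1.15 to the other starved and 0.66 to the fed libraries.

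**Figure D1:**
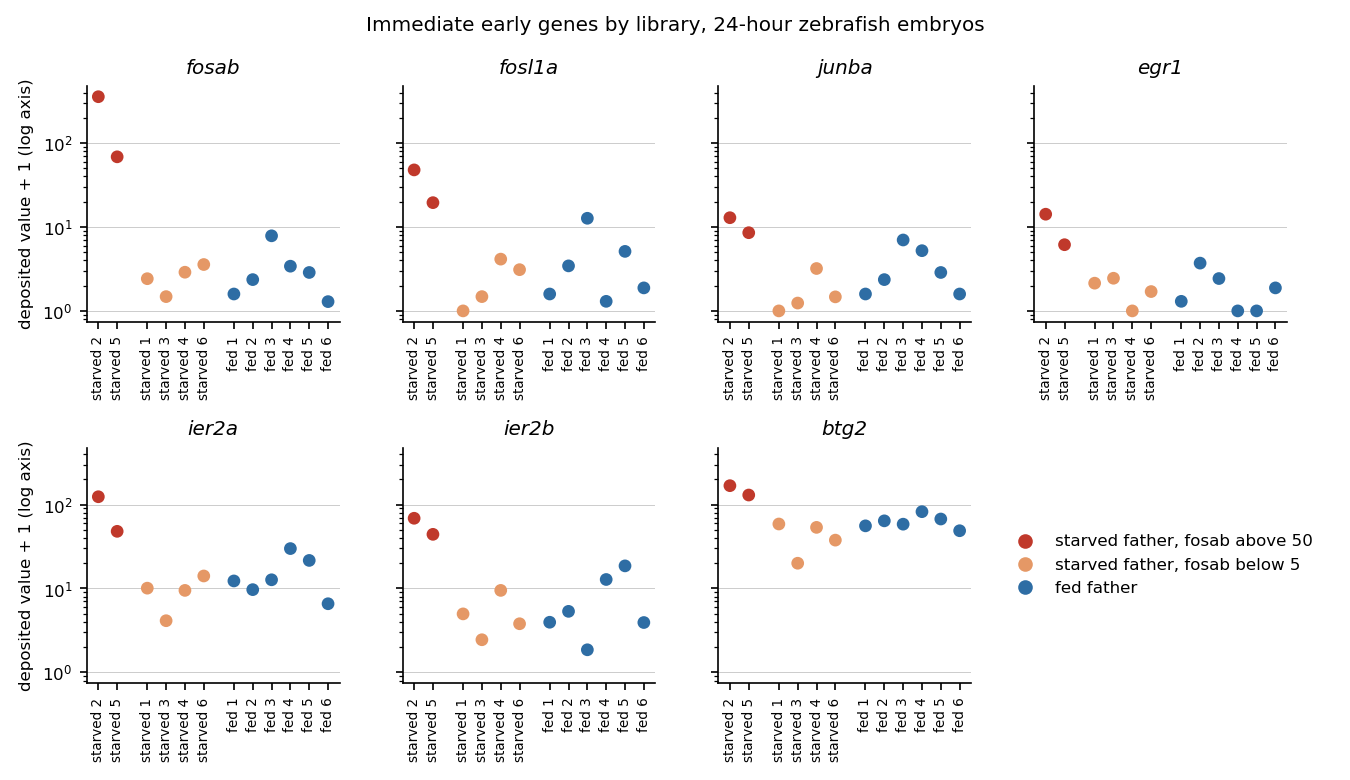
Deposited value + 1 (log axis) of the 7 immediate early genes in each of the 12 libraries, 1 point per library, with starved replicates 2 and 5 at the left of each panel, the other 4 starved libraries in the middle and the 6 fed libraries at the right. In each panel the 2 leftmost points lie above all others, by the widest margin for fosab (67.6 against 6.85 in fed 3) and by a narrow one for junba (7.55 against 6.0 in fed 3).

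The 2 libraries did not hold the genes at the same level. Every one of the 7 genes was higher in starved 2 than in starved 5. The ratio of the first library to the second was 5.26 for fosab, between 2.53 and 2.61 for fosl1a, egr1 and ier2a, 1.57 for junba and ier2b, and 1.29 for btg2. Taken alone, starved 2 lay at least 2-fold above the other 4 starved libraries at 12 of the 74 immediate early genes (136 of all genes, 0.994%). Starved 5 taken alone did so at 7 (100 of all genes, 0.731%). Both counts include fosab, which met the condition by the choice of libraries. None of the 74 lay 2-fold above the others in starved 5 only, beside 81 of all 13680 genes. At so low a share over all genes, a count of 0 in a list of 74 is no result about these genes.

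At 5 immediate early genes starved 2 only lay at least 2-fold above the other starved libraries, beside 117 of all genes. They were atf3, jun, gadd45ba, ccn1 and cebpd. Of these, jun, gadd45ba and ccn1 are named after their values were seen. The stress-induced factor gene atf3 had 100 in starved 2 and 18.9 in starved 5, against 14.8, 2.65, 5.03 and 11.9 in the other starved libraries and 4.44 to 21.4 in the fed libraries. For atf3, starved 5 was thus inside the range of the fed libraries. The AP-1 gene jun had 22.1 in starved 2 and 5.83 in starved 5, against 4.44 to 9.94 in the other starved and 5.28 to 7.87 in the fed libraries. Only starved 2 stood out at jun, by 3.79 times over starved 5.

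The growth arrest gene gadd45ba had 14.2 in starved 2 and 9.26 in starved 5, against 0.85 to 4.72 in the other starved and 1.47 to 12.9 in the fed libraries. The matrix protein gene ccn1 had 26.7 and 14.8 in the same order, against 4.91 to 11.1 in the other starved and 3.23 to 16.9 in the fed libraries. The bZIP factor gene cebpd had 19.1 and 11.3, against 4.1 to 8.81 in the other starved and 5.70 to 16.5 in the fed libraries. At these 3 genes both libraries were above the other starved libraries, while starved 5 lay within the fed range.

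**Figure D2:**
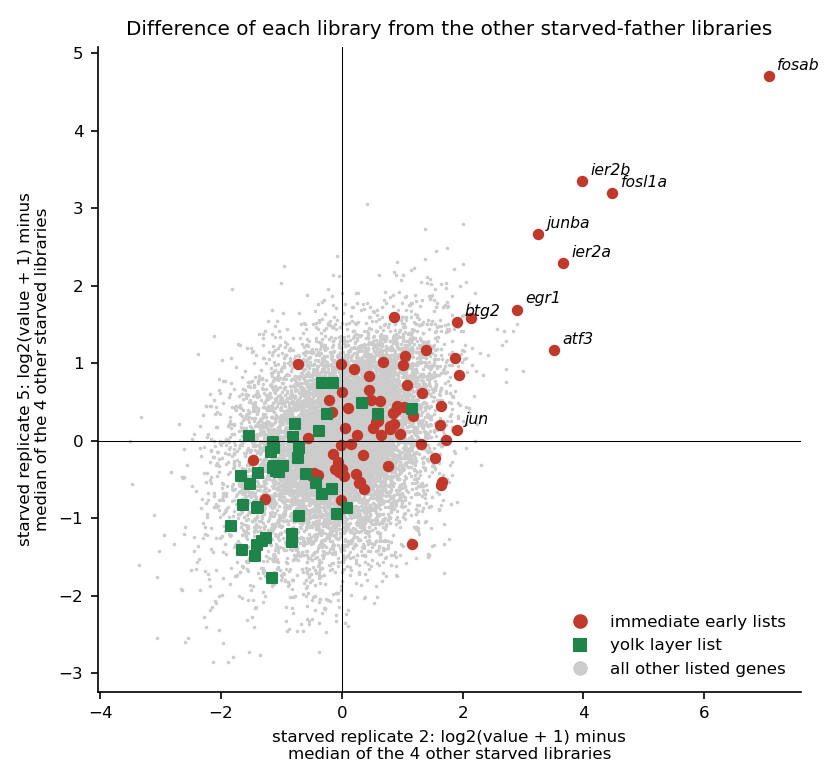
Each of the 13680 listed genes by its log2(value + 1) in starved 2 (x axis) and in starved 5 (y axis), each minus the median of the other 4 starved libraries, with the 74 immediate early genes as circles and the 42 yolk layer genes as squares. The gene fosab lies at 7.07 and 4.70, and the yolk layer genes lie mostly at the lower left, with medians of -1.01 and -0.42. The axes share the same 4 libraries, so the shape of the cloud is not a measure of likeness between the 2 libraries.

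Of 115 immediate early symbols listed, 74 were in the table, and the other 41, among them fosaa, fosb, junbb, egr4 and npas4a, are not listed there under these symbols. Both libraries lay above all 4 other starved libraries, by any margin, at 22 of the 74 genes (29.7%) and below all 4 at 1 (1.35%). Without fosab, which met the condition by the choice of libraries, the first count was 21 of 73 (28.8%). The shares over all genes were 8.0% above and 8.28% below. Of the 22 genes, 8 were also above all 6 fed libraries, namely the 7 genes above and dusp6. Over all listed genes, 283 of the 1094 above all 4 others were so. Without fosab these counts were 7 of 21 beside 282 of 1093, so this share was not far from that of all genes. The median difference from the median of the 4 others was 0.67 in starved 2 and 0.23 in starved 5 on the log2 scale, beside 0.01 and 0.03 over all genes.

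By role, 4 of 9 measured AP-1 genes, 2 of 6 Egr and nuclear receptor genes, 14 of 45 other immediate early genes and 2 of 14 feedback genes were above all 4 others. Without fosab the AP-1 count was 3 of 8. The summed value of these 8 AP-1 genes was 270.0 in starved 2 and 104 in starved 5, against 68.7, 80.5, 76.4 and 75.0 in the other starved libraries and 53.3, 67.9, 111, 68.1, 81.2 and 77.8 in the fed libraries. Starved 5 was thus above the other starved libraries but below fed 3. Not all AP-1 members stood apart. The gene fosl2 had 22.8 in starved 2 and 12.3 in starved 5, against 12.8 to 23.9 in the other starved libraries, and maff had 14.2 and 7.55, against 3.14 to 12.1. The ranges overlapped at both genes, which are named after their values were seen.

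The receptors and early factors at the low end of the table were read too rarely to rank. The orphan receptor gene nr4a3 had 1.65 in starved 2 and 2.06 in starved 5, against 0.31 to 1.14 in the other starved and 0 to 2.99 in the fed libraries. Its relative nr4a1 had 0.66 and 0.69, against 0.24 to 3.69 in the other starved libraries. Both are within a few reads of 0, both overlapped the fed libraries or the other starved ones, and both are named after their values were seen.

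Among the remaining genes above all 4 others, margins were small. The gene ier5 had 87.2 in starved 2 and 79.2 in starved 5, against 51.9 to 63.5 in the other starved and 54.5 to 117 in the fed libraries. The survival gene mcl1a had 38.6 and 29.8, against 11.3 to 25.9 in the other starved and 17.9 to 39.1 in the fed libraries. Both genes overlapped the fed libraries, as did hbegfa, klf2b, klf11b, id3, plk3, spred2a and zfp36l2 with gaps of 0.01 to 0.21 to the other starved libraries. The gap of zfp36l2 was 0 under both other scalings tried, and that of spred2a under 1 of them. Of these, mcl1a, hbegfa, klf2b, klf11b and plk3 are named after their values were seen, as is dusp1 among the feedback genes. The single immediate early gene below all 4 others was klf2a, a flow-responsive factor gene of vessel cells, with 0.66 in starved 2 and 1.37 in starved 5, against 2.34 to 4.40 in the other starved libraries.

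Of the 14 measured genes on the feedback list, none met the 2-fold condition, which only 0.139% of all genes met. Not all of them act against the pathway, since the list also holds the receptor gene il6st. The phosphatase gene dusp6, whose product switches off ERK, had 107 in starved 2 and 74.8 in starved 5, against 54.2, 56.2, 69.5 and 57.7 in the other starved libraries and 46.4 to 72.6 in the fed libraries. The 2 libraries were the highest of the 12, with gaps of only 0.10 and 0.04. The ERK pathway inhibitor gene spred2a had 77.2 and 60.4, against 40.9 to 58.9 in the other starved and 36.3 to 63.4 in the fed libraries. The phosphatase gene dusp1 had 9.24 and 7.2, inside the 3.62 to 9.75 of the other starved libraries. The summed value of the 14 feedback genes was 310 in starved 2 and 239 in starved 5, against 215 to 238 in the other starved and 209 to 259 in the fed libraries.

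**Figure D3:**
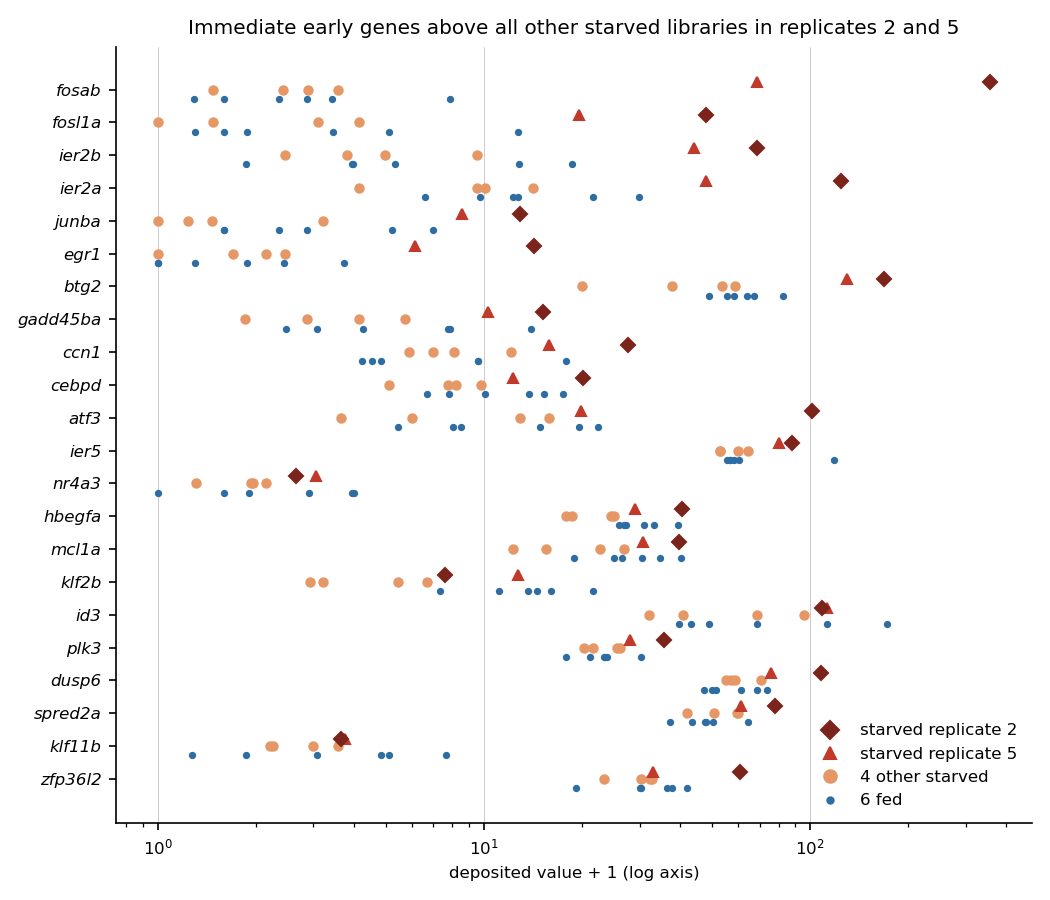
The 22 immediate early genes at which starved replicates 2 and 5 both exceed the other 4 starved libraries, with deposited value + 1 on a log axis and 1 symbol per library, in falling order of the gap. The upper genes stand clear of all other libraries, and from gadd45ba down the fed libraries reach the triangle of starved 5 at all genes but dusp6 (74.8 against 72.6 in fed 4).

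The fed libraries, which had no part in the choice, show how far single libraries of the other group rose at the same 7 genes. Fed 3 was the highest fed library at fosab (6.85), fosl1a (11.7) and junba (6.0), the 3 AP-1 genes. Fed 4 was highest at ier2a (28.9) and btg2 (81.3), fed 5 at ier2b (17.6) and fed 2 at egr1 (2.71). No single fed library led at all 7 genes.

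Within shared description codes the differences were of 1 library against 1. Starved 2 minus fed 2 was 7.24 for fosab on the log2(value + 1) scale and 1.39 to 3.80 for the other 6 genes. Starved 5 minus fed 5 was 4.58 for fosab and 0.95 to 2.62 for the others. Starved 5 minus starved 6, which shares both its code digits and its group, was 4.26 for fosab and 1.77 to 3.54 for the others. Each of these differences was positive. This had to be so, since at these genes both libraries lay above every other starved and every fed library.

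Outside the immediate early lists, 4 more genes with values of at least 5 in both libraries lay 2-fold above the other starved libraries. The gene hnmt, for the histamine-degrading enzyme histamine N-methyltransferase, had 12.9 in starved 2 and 15.8 in starved 5, against 0.57, 1.69, 3.46 and 5.14 in the other starved and 0 to 8.24 in the fed libraries. The lysozyme gene lyz, a marker of neutrophils and macrophages, had 15.8 in both, against 5.40, 0.24, 1.57 and 7.01 in the other starved and 0.88 to 13.1 in the fed libraries. At these 2 genes starved 2 was not above starved 5, unlike at the 7 immediate early genes.

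The gene cflara, a regulator of caspase-8, had 15.2 in starved 2 and 9.95 in starved 5, against 2.56 to 4.44 in the other starved libraries, but fed 5 had 12.7. The homeobox gene lbx1a had 5.61 and 5.83, against 0 to 1.70 in the other starved libraries, but fed 1 had 8.0. Neither stood apart from the fed libraries. Of the 19 genes, 10 were above all 6 fed libraries, and 11 had under 10 reads in every other starved library, so that many of these gaps rest on few reads.

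Lists of other responses that can involve immediate early genes were counted in the same way. Both libraries were above all 4 others at 3 of 27 light-induced and clock genes, 1 of 14 glucocorticoid response genes, 4 of 25 heat shock and chaperone genes, 0 of 20 wound and inflammation genes, 3 of 19 hypoxia genes, 3 of 22 p53 pathway genes and 3 of 31 amino acid and ER stress genes. The glucocorticoid gene is cebpd, and 1 of the amino acid and ER stress genes is atf3, both counted above among the immediate early genes. Both libraries were below all 4 at 0 to 2 genes of each list. The background shares are again 8.0% above and 8.28% below. None of these lists held a gene at least 2-fold higher except hspb11 among the chaperone genes and btg2, counted above, in the p53 list. Over all genes the share at least 2-fold higher was 0.139%.

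Some single members of these lists stood out in starved 2. The gene hspb11 had 8.91 in starved 2 and 2.74 in starved 5, against 0 to 0.70 in the other starved libraries, but 0 to 3.85 in the fed libraries. The collagen chaperone gene serpinh1b had 203 and 99.8, against 30.6 to 74.8 in the other starved libraries, while fed 3 had 276. The glutathione-degrading stress gene chac1 had 93.8 and 53.9, against 38.1, 19.5, 34.0 and 24.3 in the other starved and 24.3 to 43.0 in the fed libraries. Of the 3, only chac1 was higher in both libraries than in all 10 others, with gaps of 0.49 to the other starved and 0.32 to the fed libraries.

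The heat shock factor gene hsf1 had 22.4 in starved 2 and 12.7 in starved 5, against 8.24 to 11 in the other starved and 4.12 to 12 in the fed libraries. The clock genes rorab and arntl1a were among those below all 4 others. For rorab, values were 4.95 and 4.12, against 9.94 to 11.6 in the other starved libraries, but fed 4 had 3.92. The mitochondrial phosphoenolpyruvate carboxykinase gene pck2 had 14.8 and 17.5, against 33.2 to 63.2 in the other starved and 23.5 to 89.8 in the fed libraries, and was below all 10.

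**Figure D4:**
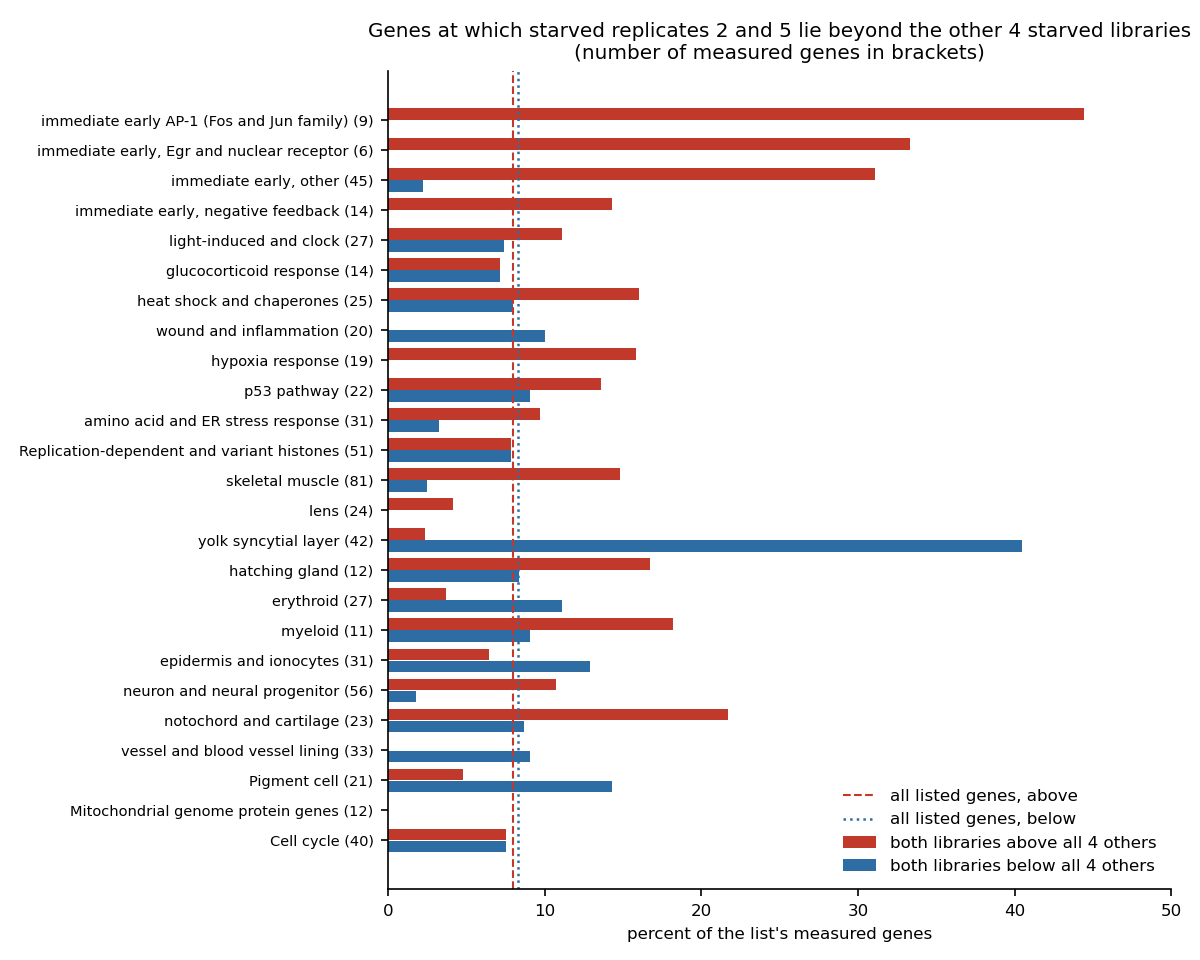
Share of each list's measured genes at which starved replicates 2 and 5 both lie above (upper bar) or both below (lower bar) all 4 other starved libraries, with the number of measured genes in brackets; the dashed and dotted lines mark the shares over all listed genes, 8.0% and 8.28%. The bars of the AP-1, Egr and other immediate early lists reach 44.4%, 33.3% and 31.1% above, and the yolk layer list reaches 40.5% below. The AP-1 bar counts fosab, which met the condition by the choice of libraries, and without fosab the share is 37.5%. The lists differ in size, so that 1 gene moves a short list by several percent.

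At the 2-fold condition, genes that were lower in the 2 libraries were more numerous than higher ones. This excess did not hold with a pseudocount of 5 or a 4-fold gap. Both libraries lay at least 2-fold below the lowest of the other 4 at 44 of 13680 genes (0.322%). At 30 of the 44 they were also below all 6 fed libraries. At 34 of the 44 genes both libraries had under 10 reads, and starved 2 was the least deeply read of the 12. Without the most abundant transcript, starved 2 had 1794004 reads and starved 5 had 1797712. The other starved libraries had 1947476 to 2537314 reads by this count, and fed 5 had the fewest of the 12, 1682972. The amino acid transporter gene slc43a2b (chromosome 10, 24371921 to 24391716) was well read. It had 61.1 in starved 2 and 70.7 in starved 5, against 150, 180, 376 and 273 in the other starved libraries and 253, 157, 181, 419, 452 and 291 in the fed libraries. Both libraries were at least 2-fold below every other library, with gaps of -1.08 to the other starved and -1.14 to the fed libraries. Over all listed genes, 23 genes or 0.168% lay 2-fold below every fed library in both.

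The orphan nuclear receptor gene nr0b2a, whose mammalian counterpart represses bile acid synthesis, had 35.0 in starved 2 and 27.8 in starved 5, against 103, 83.2, 173 and 84.6 in the other starved and 57.1 to 147 in the fed libraries. The gene dpm3, for a subunit of the enzyme that makes dolichol-phosphate mannose, had 13.9 and 14.4, against 31.3 to 36.4 in the other starved and 22.5 to 35.2 in the fed libraries. Neither range overlapped with the 2 libraries. The cystatin gene cst14b.1 had 2.64 and 4.46, against 13.9, 27.0, 17.3 and 15.7 in the other starved and 6.02 to 20.2 in the fed libraries.

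The glycogen-binding gene stbd1 showed the widest gap among the named lower genes, -1.83, with 1.65 in starved 2 and 0.69 in starved 5, against 8.41 to 17.6 in the other starved and 5.87 to 14.5 in the fed libraries. The phospholipid gene etnppl had 2.31 and 3.09, against 7.95 to 12.6 in the other starved libraries. The remaining named lower genes, rasa4, jam2b, micall1a, hiat1b, nudt4a and cdh26.1, had values of 0 to 2.74 in the 2 libraries and gaps of -1.15 to -1.48. Both libraries were below all 6 fed libraries at each of these 8 genes.

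Genes of the yolk syncytial layer, the cell layer that takes up yolk and sends out lipoproteins, were low in the same 2 libraries. Both lay below all 4 other starved libraries at 17 of 42 genes (40.5%, beside 8.28% of all genes) and above them at 1, apoa4a (2.38%). At 12 of the 17 they were also below all 6 fed libraries. None of the 42 genes met the 2-fold condition, which only 0.139% of all genes met above and 0.322% below. The median difference from the median of the 4 others was -1.01 in starved 2 and -0.42 in starved 5 on the log2 scale, and 4 of the 42 genes were at least 2-fold below the 4 others in starved 2 taken alone, against 0 in starved 5 (2.44% and 1.41% of all genes).

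Of the 4 yolk layer genes with the widest gaps, 3 encode apolipoproteins. The gene apobb.1, for the large protein of lipoprotein particles, had 857 in starved 2 and 1019 in starved 5, against 1693, 2322, 3339 and 3174 in the other starved libraries and 2745, 1726, 2163, 3043, 3729 and 1730 in the fed libraries. Its relative apoba had 154 and 161, against 271, 423, 396 and 439 in the other starved and 285 to 444 in the fed libraries. Neither overlapped any other library, with gaps to the other starved libraries of -0.73 for apobb.1 and -0.75 for apoba.

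The gene apoc2, for the cofactor of lipoprotein lipase, had 52.2 in starved 2 and 50.1 in starved 5, against 100, 140, 146 and 149 in the other starved and 78.1 to 217 in the fed libraries. The vitronectin gene vtnb had 11.9 and 20.6, against 37.5 to 51.4 in the other starved and 29.3 to 59.5 in the fed libraries. Both genes were below all 10 other libraries. The small apolipoprotein gene apoc1, named after its values were seen, had 408 and 711, against 1275, 1114, 1658 and 1253 in the other starved libraries. The cathepsin B gene ctsba, chosen in the same way, had 59.4 and 86.5, against 193, 113, 175 and 141 in the other starved libraries.

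The summed value of the 42 yolk layer genes was 5289 in starved 2 and 8141 in starved 5, against 9619, 9185, 18419 and 13222 in the other starved libraries and 16458, 9327, 10104, 24621, 26259 and 9904 in the fed libraries. The 2 libraries with high fosab therefore held the lowest yolk layer sums of the 12, although starved replicates 1 and 3 and fed replicates 2, 3 and 6 came near. Whether the lower yolk layer sum has a part in the immediate early values was not tested.

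Muscle genes were on the high side in part. Both libraries were above all 4 other starved libraries at 12 of 81 skeletal muscle genes (14.8%, beside 8.0% of all genes) and below them at 2 (2.47%, beside 8.28%). The muscle actin gene acta1b had 560 in starved 2 and 515 in starved 5, against 250 to 357 in the other starved and 200 to 394 in the fed libraries. The fast myosin light chain gene myl1 had 1554 and 1243, against 528 to 943 in the other starved and 483 to 964 in the fed libraries. Both genes separated the 2 libraries from the other 10.

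The whole muscle list did not. Its summed value was 36471 in starved 2 and 25979 in starved 5, against 28753, 33059, 17831 and 30505 in the other starved and 10428 to 36302 in the fed libraries. Starved 2 was the highest of the 12 and starved 5 lay within the range of both other groups. The median difference of the list was 0.38 in starved 2 and -0.06 in starved 5. The part of muscle RNA in the immediate early values was not tested.

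**Figure D5:**
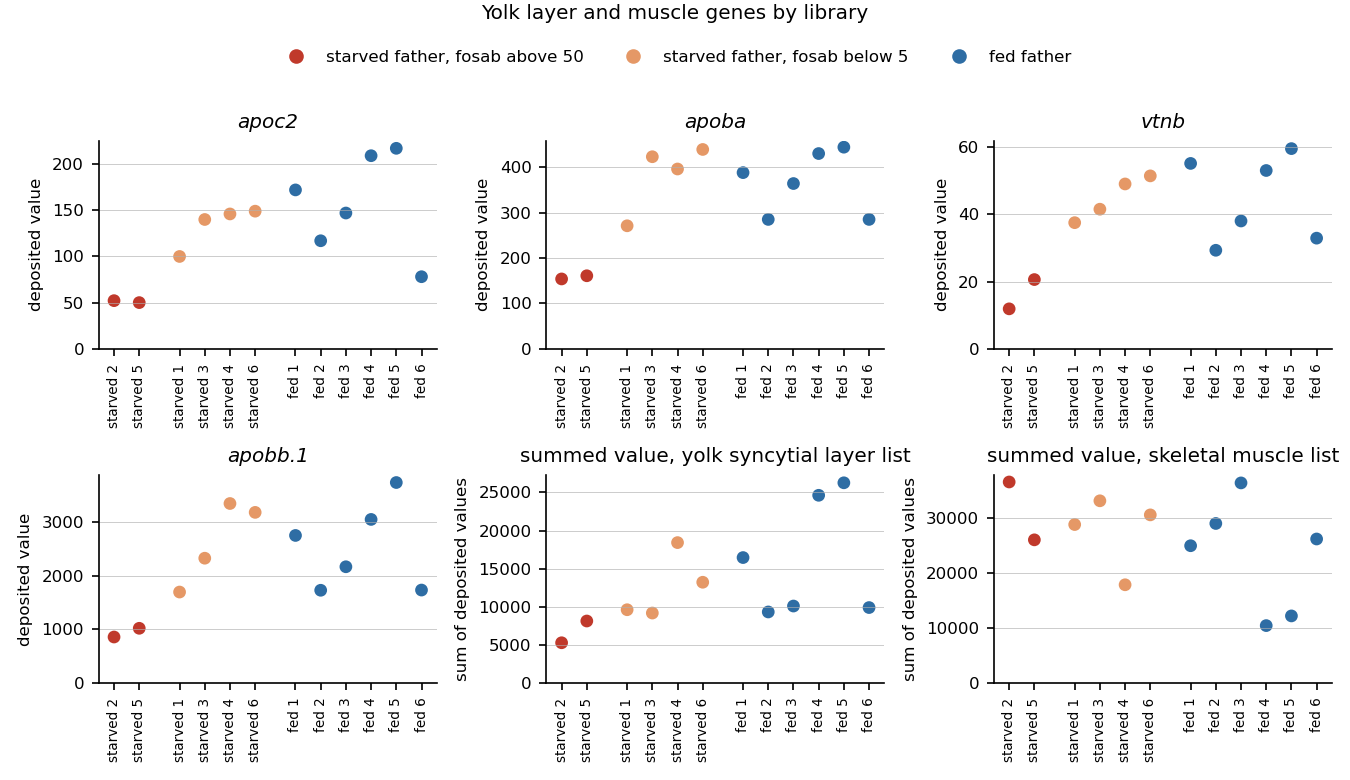
Deposited values (linear axis) of 4 yolk layer genes and the summed values of the yolk layer and skeletal muscle lists, 1 point per library, with starved replicates 2 and 5 at the left, then the other starved and the fed libraries. The 2 leftmost points are the lowest in the 4 gene panels and in the yolk sum (5289 and 8141), while in the muscle sum they lie apart from each other (36471 and 25979).

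For the remaining lists, which mark other tissues and the cell cycle, both libraries were above all 4 others at 4 of 51 histone genes, 1 of 24 lens genes, 2 of 12 hatching gland genes, 1 of 27 erythroid genes, 2 of 11 myeloid genes, 2 of 31 epidermis and ionocyte genes and 6 of 56 neural genes. They were also above all 4 at 5 of 23 notochord and cartilage genes, 0 of 33 vessel genes, 1 of 21 pigment cell genes, 0 of 12 mitochondrial protein genes and 3 of 40 cell cycle genes. They were below all 4 at 4 histone, 0 lens, 1 hatching gland, 3 erythroid, 1 myeloid, 4 epidermal and 1 neural gene, and at 2 notochord, 3 vessel, 3 pigment cell, 0 mitochondrial and 3 cell cycle genes. The shares of all genes to read these counts against are 8.0% above and 8.28% below.

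The gene lyz belongs to the myeloid list. The summed value of that list was 70.0 and 80.6 in the 2 libraries with high fosab, against 66.8 to 95.3 in the other starved and 64.0 to 209 in the fed libraries. The macrophage marker mfap4 had 5.28 in starved 2 and 7.2 in starved 5, against 0.57 to 2.80 in the other starved libraries, but 1.17 to 9.73 in the fed libraries. The gene cebpa of the same list went the other way. Both libraries were below its range of 17.1 to 38.6 in the other starved libraries (gap -0.47). Starved 2 had 4.62, while starved 5 lay within the fed range of 7.43 to 29.8. The sums overlapped in all 3 groups.

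The comparison the study was designed for, starved against fed fathers, includes these libraries. Over all 6 libraries a group, fosab averaged 71.6 ± 142 in offspring of starved fathers and 2.23 ± 2.4 in offspring of fed fathers (SD, n = 6 each). The log2 difference was 1.87 ± 0.95 (SE), which did not pass limma's test (adjusted p = 0.885, Benjamini-Hochberg over 13680 genes). Fosab was above the highest fed value in 2 of 6 starved libraries. The count test edgeR on recovered reads gave a fosab difference of 4.96 (adjusted p = 0.844). Without starved replicates 2 and 5 the difference was -0.12 ± 0.49 with limma and -0.48 with edgeR. These 2 libraries were chosen for high fosab, so leaving them out had to lower the difference, and the values without them are a description only.

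No gene passed the threshold of 0.05 in the whole comparison with limma, 0 of 13680 or 0%, and none did without the 2 libraries. The counts at an unadjusted p under 0.05 were 758 with all libraries and 775 without the 2, and edgeR and DESeq2 on the recovered reads also called 0 genes, with 649 and 754 at an unadjusted p under 0.05. A limma fit that blocked on replicate number called 39 genes (0.285%), and 6 without the 2 libraries. The 39 include 8 yolk layer genes, all lower in offspring of starved fathers, and 7 skeletal muscle genes, all higher, and the unblocked fit called none of either list. Since the labels do not say which libraries came from separate fathers, all p-values here reflect only differences among libraries.

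For the other 6 immediate early genes the same comparison gave log2 differences between -0.02 ± 0.34 for btg2 and 0.86 ± 0.67 for ier2b (SE). The gene egr1 was at 0.86 ± 0.53, and limma's adjusted p lay between 0.896 and 1. None passed. These 6 genes were picked for their values in 2 of the 12 libraries compared.

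Over the 74 immediate early genes, the starved mean was higher at 36 and lower at 38 with all libraries, with a median log2 difference of -0.01, the same as the median over all genes. Without starved replicates 2 and 5 it was higher at 24 and lower at 50, with a median of -0.18. The 2 libraries were chosen for an immediate early gene, so these counts are a description of the list and no support for a difference. For the 42 yolk layer genes the starved mean was higher at 3 and lower at 39 with all libraries (median -0.47). Without the 2 it was higher at 11 and lower at 31 (median -0.19). Over all 13680 genes the starved mean was higher at 6567 and lower at 7113 with all libraries. Without the 2 it was higher at 6592 and lower at 7088 (median -0.02). For the 81 muscle genes the medians were 0.33 with all libraries and 0.28 without the 2. The difference between the comparisons with and without the 2 libraries was not tested, since they share the other libraries.

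In the authors' deposited table, fosab has a log2 fold change of 3.23 with an FDR of 1.74e-16, and ier2b one of 1.22 with an FDR of 0.0334. These 2 are the only immediate early genes of the 74 that the authors' deposited table puts higher at an FDR under 0.05, beside 20 of all genes (0.146%), and klf2b is the only one lower, beside 85 (0.621%). The authors' deposited table gives slc43a2b a log2 fold change of -0.75 with an FDR of 0.00308, while apobb.1 and apoba do not pass there. At the same FDR, the authors' deposited table puts 16 of the 42 yolk layer genes lower (0.621% of all genes) and 12 of the 81 skeletal muscle genes higher (0.146%). The other 5 of the 7 immediate early genes have an FDR between 0.185 and 0.988 in the authors' deposited table.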

How the data were processed

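RNA of 24-hour zebrafish embryos was read by 3' tag sequencing (QuantSeq forward kit, NextSeq 500), per the labels' protocols. STAR, edgeR and the build GRCz11 (danRer11) are named in the submitters' processing notes; versions, counting program and use of strand are not stated there. The deposited values of each library are a signal that the authors made by dividing counts by a size factor. No header says so, but all values (100%) came within 0.03 of a whole read. The authors' log2 fold change and FDR, an adjusted p-value, were deposited beside them, per the file headers.

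The main comparison was planned with edgeR on counts, or limma where values were normalized. It was made with limma 3.58.1 (variance trend, no block) in R 4.3.3 on log2(value + 1) over 13680 genes, with Benjamini-Hochberg adjustment. edgeR 4.0.16 and DESeq2 1.42.0 on recovered reads were alternatives, and DESeq2 left 3 adjusted p-values empty. Limma without the block and edgeR were tested on simulated data, while DESeq2 and the blocked fit were not. No pair of libraries within a group was a duplicate (chi-square per degree of freedom 6.33 to 40.6 over 30 pairs). A gap is the difference on log2(value + 1) between the nearer of the 2 libraries and the nearest of the others. Library columns of other series were 0.

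The libraries, the 25 gene lists and the tests were chosen with earlier results of these data known. Named genes were fosab, every immediate early gene past 2-fold and up to 12 more by mean value. They also include up to 20 genes past 2-fold higher and 12 past 2-fold lower by gap with a value of at least 5, without clone-style names, and up to 4 genes per further list. Others are said to be chosen after their values were seen. Genes with near-identical copies, such as histones, muscle actins and myosins, and overlapping genes are uncertain, since reads of copies could be split. No sequence is shown, since none of the tables used here holds one for these genes.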

Additional observations from a re-analysis of the deposited data

Results flagged for a closer look

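In 222 groups of 6 libraries, 8 single values lay far from the rest of their group by a gap-to-range measure, and chance flags about 1 in 20. Of these 8, 1 was in a library with high fosab: zfp36l2, a gene for an mRNA-destabilising protein, had 59.8 in starved replicate 2, while the other 5 starved libraries had 22.4 to 31.9. In the other starved libraries, the survival gene mcl1b had 104 in starved replicate 4, against 29.2 to 46.3. Among fed libraries, 3 flagged values came from fed replicate 4: ier5 at 117, against 54.5 to 59.5 in the other 5 fed libraries, cdh26.1 at 2.71, against 7.92 to 11.4, and arntl1a at 1.51, against 4.11 to 5.99. Fed replicate 5 gave 2, hsf1 at 4.12, against 8.51 to 12, and vegfab at 0.75, against 2.41 to 3.26. Fed replicate 3 gave hspb11 at 0, against 1.87 to 3.85. The 7 genes that set starved replicates 2 and 5 apart are not among them. The measure takes the gap of 1 value to the next, so 2 high values in a group can hide each other. Their absence therefore carries no meaning.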

How the results depend on the processing

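The 19 genes at least 2-fold higher became 30 with a pseudocount of 0.5, 5 with a pseudocount of 5, 7 with a mean value of at least 5 and 3 with a 4-fold gap. The 44 lower genes became 70, 5, 24 and 0 under the same settings. Leaving out 1 starved library gave 40 to 136 higher and 56 to 334 lower genes: 100 and 193 without starved replicate 2, 136 and 334 without starved replicate 5, and 40 to 58 and 56 to 103 without 1 of the other 4. Fewer libraries then have to meet the condition, so none of the counts with a library left out in this paragraph could fall. That they did not fall carries no meaning. The 7 immediate early genes at least 2-fold higher stayed 7 under both other scalings, and became 5 with a pseudocount of 5 or a mean value of at least 5, 3 with a 4-fold gap and 7 to 12 with 1 starved library left out, the highest count without starved replicate 5. The 22 immediate early genes above all other starved libraries gave 25 to 41 in the same way, and 18 to 22 under the other settings. The 17 yolk layer genes below gave 17 to 30, and 17 or 18 under the other settings. Both largest counts came without starved replicate 5. Of the gaps of named genes under other settings, 1022 stayed, 89 moved and none turned round. A gap stayed if it changed by less than the SD of the other 4 starved libraries on log2(value + 1). A small gap could therefore fall to 0, which ends the separation, and still count as stayed. Only the other scalings could have turned a gap round. A changed pseudocount, the filter on mean value or a library left out cannot change its sign. TMM scaling moved the median of all genes by -0.01 to 0.02, and leaving out the most abundant transcript by -0.07 to 0.06. Both scalings, TMM above all, were thus close to that of the deposited values, so unchanged results under them carry little weight.

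The 0 genes called between starved and fed fathers stayed 0 with any 1 library left out, where the fosab difference ran between 0.84, without starved replicate 2, and 2.42. The fosab difference was 4.96 with edgeR and 5.00 with DESeq2 (adjusted p = 0.844 and 0.293). It was below 0 without the 2 libraries with high fosab: -0.12 with limma, -0.48 with edgeR, and -0.14 with the replicate block, whether 2 libraries or 2 pairs were left out. The 2 were chosen for high fosab, which fixes the direction of this shift, so it supports nothing. The edgeR and block settings without the 2 were chosen after seeing the data. The replicate block called 39 genes, 8 higher and 31 lower, and 6 without the 2 libraries or 5 without the 2 pairs. Deviations of same-numbered libraries correlated at 0.0992 to 0.445 over genes, under 0.1 at replicate 1. Every starved library correlated best with the fed library of its own number. Same-numbered libraries also share the digits of a description code, and at replicates 5 and 6 its last letter. The labels do not say what a code stands for, so whether the libraries are pairs is not settled. The main fit was planned without the block, and its count of 0 genes leaves any pairing out of account.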
